A study of Mus musculus with 4 samples.

Results

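The miRNAs of the Mirg region, called the miR-379/410 cluster after the hairpins of miR-379 and miR-410, were examined in small RNA libraries of mouse brain cortex. A deposited row was taken as a member when its miRNA name held 1 of the 35 numbers assigned to the cluster, whatever the letter or the arm of the hairpin. The rule found 71 of the 942 mature miRNAs in the table, from 36 hairpins. Expression levels were not used to choose them. The libraries came from 4 mice of strain B6C3 aged 9 months. Of these, 2 were wild-type (WT1 and WT2) and 2 were APPswe/PS1ΔE9 double transgenic mice (APP3 and APP4, the AD mice), whose neurons make APPswe, an amyloid precursor protein with the Swedish mutation, and PS1ΔE9, a presenilin 1 without exon 9. The study's methods name WT1 with APP4 and WT2 with APP3 as sibling pairs, and because a pair is 1 WT and 1 AD mouse, differences between siblings were not replicated within a pair.

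The miR-379/410 cluster lies in the imprinted Dlk1-Dio3 region, where the noncoding RNAs are made from the maternal chromosome. Its hairpins are cut out of long noncoding transcripts, and each hairpin can give a mature miRNA from its 5′ arm (5p) and another from its 3′ arm (3p). The cluster is known for its high expression in brain, and several members, such as miR-134, act on mRNAs at dendrites and synapses. A miRNA finds its targets mainly through its seed, bases 2 to 8.

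All 36 hairpins were placed on mouse chromosome 12 by the GENCODE vM21 annotation (GRCm38), at chr12:109709060-109747960, a stretch of 38.9 kb. The plus strand held 35 of them, and Mir299b was annotated on the minus strand opposite Mir299a. The annotated Mirg gene, chr12:109729764-109749460, starts inside this stretch. Upstream of its annotated start lay 24 hairpins, from Mir379 to Mir544. Of the 12 hairpins within Mirg, 4 were in an exon of a Mirg transcript, 4 were partly in an exon and 4 were in an intron.

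RefSeq (GRCm38.p6) gave a mature sequence for 67 of the 71 members. These are the sequences of the 5 members with the most reads, which carried most of the cluster's reads, with the seed in capitals.
miR-411-5p: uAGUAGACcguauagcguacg
miR-541-5p: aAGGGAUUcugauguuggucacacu
miR-410-3p: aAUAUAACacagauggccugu
miR-300-3p: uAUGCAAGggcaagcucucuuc
miR-381-3p: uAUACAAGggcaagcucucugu
The members miR-300-3p and miR-381-3p differed at 3 of 22 bases with their 5′ ends aligned, and 1 of these was in the seed. No 2 of these 5 miRNAs had the same seed.

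The hairpin of miR-409 is shown because its 2 arms moved in opposite ways between siblings, and also between mice of one genotype. Mir409 is at chr12:109743158-109743236 on the plus strand, in an intron of Mirg, and its 79 bases are printed with the 5p and then the 3p mature miRNA in capitals.
Mir409: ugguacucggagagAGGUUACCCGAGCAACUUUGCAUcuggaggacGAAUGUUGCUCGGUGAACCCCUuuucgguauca
With their seeds in capitals, the mature miRNAs of this hairpin are as follows.
miR-409-5p: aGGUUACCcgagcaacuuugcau
miR-409-3p: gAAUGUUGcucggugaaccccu
Of the 942 miRNAs of the table, 754 had a mature sequence to compare, and no other of these had the seed of either arm.

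The miR-376 hairpins are shown because their members were among those called in one sibling pair and because their sequences are close to each other. Mir376c, Mir376b and Mir376a lie next to each other, between 13.7 and 14.7 kb downstream of the start of Mir379.
miR-376c-5p: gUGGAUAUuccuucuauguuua
miR-376b-5p: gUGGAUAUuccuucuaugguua
miR-376a-5p: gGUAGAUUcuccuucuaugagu
miR-376b-3p: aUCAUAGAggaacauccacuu
miR-376a-3p: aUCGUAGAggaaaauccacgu
The members miR-376c-5p and miR-376b-5p differed at 1 of 22 bases and shared the seed. The study's methods allow up to 2 mismatches in matching the reads and also state that none was allowed for miRBase, so whether reads could be split between these miRNAs is uncertain. RNA editing is known in the miR-376 family, and edited reads are not separated in the table.

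The members used 62 different seeds over 67 sequences. Besides the 376c-5p and 376b-5p pair, the same seed was found in miR-379-3p and miR-411-3p, in miR-379-5p and miR-1193-5p, in miR-299a-3p and miR-299b-3p, and in miR-494-5p and miR-410-5p. Among the 754 miRNAs of the table with a mature sequence, a seed was shared with a miRNA outside the cluster by 5 members, such as miR-329-3p with miR-362-3p. The commonest bases 2 to 4 of the 5p members were GGU, found in 12 of the 34 with a sequence (35.3%) and in 5% of the 340 5p miRNAs of the table that have one. This count includes the members and the motif was picked as the commonest one, so it is given as a description. Examples of such members follow, in which miR-379-5p and miR-1193-5p also share the whole seed.
miR-410-5p: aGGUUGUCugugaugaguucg
miR-379-5p: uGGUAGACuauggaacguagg
miR-1193-5p: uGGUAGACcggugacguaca

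The WT libraries held 26085776 (WT1) and 22078713 (WT2) miRNA reads, and the AD libraries 21266937 (APP3) and 19048747 (APP4). Levels below are reads per 1000000 of these totals (RPM), and 3 reads correspond to 0.115 to 0.157 RPM. Lists of marker miRNAs were read to check the tissue. Neuronal markers such as miR-124-3p summed to between 78050 and 85393 RPM over the 4 libraries, and those of muscle and liver to between 99.4 and 124 RPM. The 8 epithelial markers of the miR-200 and miR-183 families, none of them at 0 in all libraries, summed to 5862 RPM in APP4, against 576 to 1024 RPM in both WT libraries and 803 RPM in APP3. The vessel markers, of which 2 of 3 were in the table, summed to 24699 and 25178 RPM in WT1 and WT2, and to 21653 and 17686 RPM in APP3 and APP4. The part of these in the results below was not tested. The table lists miRNAs only, so the transgenes were not checked here.

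The cluster took a similar share of the miRNA reads in all 4 mice. Its members together made up 4.07% of the miRNA reads of WT1 and 3.69% of those of WT2, with 95% Wilson intervals of 4.07 to 4.08 and 3.68 to 3.69. In the AD mice they made up 3.94% of the reads of APP3 and 4.06% of those of APP4, with intervals of 3.93 to 3.94 and 4.05 to 4.07. The WT mice had a mean share of 3.88% ± 0.275 (SD, n = 2) and the AD mice one of 3.997% ± 0.0851 (SD, n = 2), a gap smaller than the spread between the WT mice. With the library sizes corrected by TMM (trimmed mean of M values) the order turned, at 4.03% ± 0.369 (SD, n = 2) and 3.85% ± 0.128 (SD, n = 2). In cortex libraries, fewer cells of a type and less RNA per cell cannot be told apart. The neighbouring imprinted miRNAs from Gtl2 to Rian took a larger share, 19.2% in both WT mice, 22.1% in APP3 and 16.7% in APP4, most of it from 1 miRNA, miR-127-3p. Without miR-127-3p the neighbours made up 1.70%, 1.94%, 2.93% and 2.63% in the same order. Their miR-434-3p was at 9314 RPM in WT1, 11327 RPM in WT2, 21035 RPM in APP3 and 16971 RPM in APP4, with both AD mice above both WT mice.

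A few miRNAs carried the cluster. The 5 leading members held 84.3% and 79.6% of its reads in WT1 and WT2, and 81.9% and 80.4% in APP3 and APP4. At least 100 RPM on average was reached by 28 members, at least 10 RPM by 40, and 12 stayed under 1 RPM. All 71 had reads, and 69 had reads in every library. The exceptions were miR-758-5p, without reads in WT1 and APP3, and miR-494-5p, without reads in WT1 and APP4, where the depth allows up to 3 reads, or 0.115 RPM in WT1, 0.141 RPM in APP3 and 0.157 RPM in APP4.

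**Figure D1:**
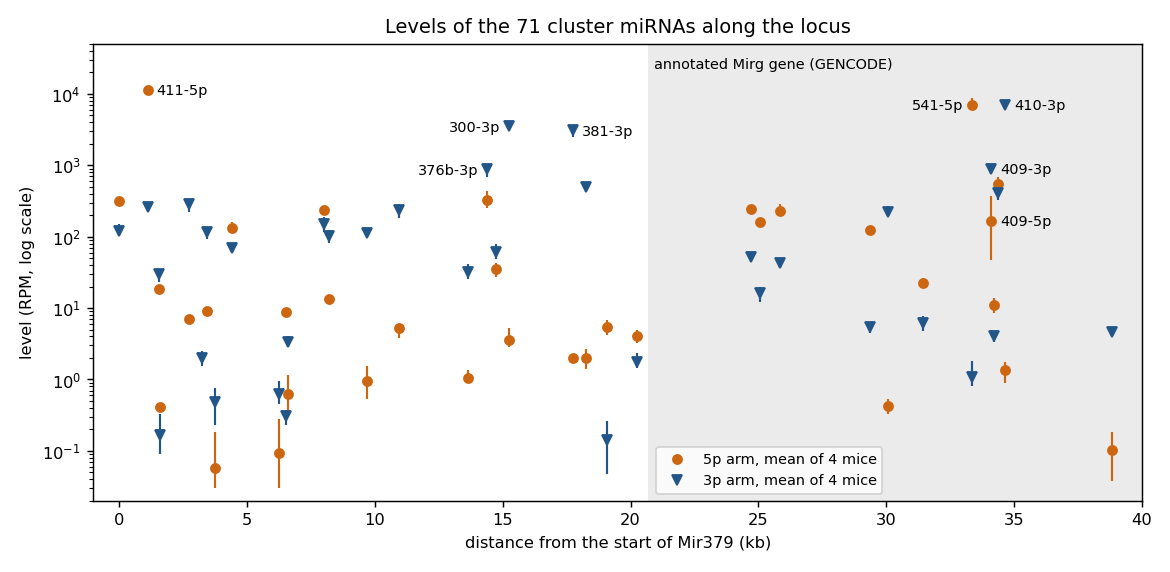
Mean level of the 71 cluster miRNAs (RPM, log scale) against the distance of their hairpin from the start of Mir379 (kb), with circles for 5p and triangles for 3p arms, vertical lines from the lowest to the highest of the 4 mice (0 reads drawn at 0.03 RPM), and the annotated Mirg gene shaded. The 5 leading members come from hairpins spread over the locus, and miR-409-5p has the longest line among the members of at least 100 RPM.

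The most abundant member was miR-411-5p, number 19 of all miRNAs by mean level, with 12390 RPM in WT1, 10532 RPM in WT2, 12093 RPM in APP3 and 11017 RPM in APP4. The genotypes overlapped. The member miR-541-5p was at 8663 RPM in WT1, 5977 RPM in WT2, 6165 RPM in APP3 and 7292 RPM in APP4, and here the WT mice were the highest and the lowest. The levels of miR-410-3p were close in the 4 mice, with 6949 RPM in WT1, 7029 RPM in WT2, 7218 RPM in APP3 and 6684 RPM in APP4. By mean level, miR-541-5p at 7024 RPM and miR-410-3p at 6970 RPM were neighbours that did not differ beyond their spread.

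Next came miR-300-3p, with 3237 RPM in WT1, 3329 RPM in WT2, 3659 RPM in APP3 and 3907 RPM in APP4. Both AD mice were above both WT mice, by 0.27 on the log2 scale in APP4 against WT1 and by 0.14 in APP3 against WT2. The level of miR-381-3p was 3116 RPM in WT1, 2485 RPM in WT2, 3090 RPM in APP3 and 3705 RPM in APP4, so APP3 lay between the WT mice. The remaining 5 of the 10 leading members, miR-409-3p, miR-376b-3p, miR-369-5p, miR-487b-3p and miR-369-3p, had mean levels between 407 and 895 RPM. Of these, miR-369-5p was at 467 RPM in WT1, 511 RPM in WT2, 518 RPM in APP3 and 681 RPM in APP4, and miR-369-3p, from the other arm of the hairpin, at 327 RPM, 420.5 RPM, 421.5 RPM and 460 RPM in the same order. The level of miR-487b-3p was 418 RPM in WT1, 494 RPM in WT2, 484 RPM in APP3 and 590 RPM in APP4, with APP3 between the WT mice.

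Libraries were compared in pairs with Fisher's exact test (two-sided) on the reads of every miRNA, and p-values were adjusted to a false discovery rate (FDR) after Benjamini and Hochberg over all miRNAs with a read. A call needed both an FDR below 0.05 and a change of 1.5-fold or more, the limits that the study's methods give. The test compares 2 libraries and not the genotypes, and its standard errors (SE) cover counting error only. In APP4 against WT1, 7 of 70 members were called, beside 11.6% of all 899 miRNAs tested. Higher in APP4 were 6 members (all miRNAs, 9.68%), and 1 was lower (all miRNAs, 1.89%). In APP3 against WT2, 3 of 71 members were called, beside 6.81% of all 896 miRNAs, with 1 member higher (all miRNAs, 3.35%) and 2 lower (all miRNAs, 3.46%).

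Between mice of one genotype the same rule called 6 of 71 members in WT2 against WT1, beside 10.1% of all miRNAs, and 7 of 71 in APP4 against APP3, beside 8.05%. The counts within a genotype were thus of the size of those between siblings. The median log2 fold change of the members was 0.21 in APP4 against WT1, where that of all miRNAs was 0.21 too, and -0.01 in APP3 against WT2, where that of all miRNAs was 0.05. The TMM sizes lowered the median of all miRNAs by 0.18 in APP4 against WT1, and the calls over all miRNAs then split into 46 higher and 36 lower in place of 87 and 17. With them, 2 members were called higher and 2 lower in that pair. Of the Gtl2 to Rian neighbours, 3 of 32 were called in APP4 against WT1 and 3 of 32 in APP3 against WT2.

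**Figure D2:**
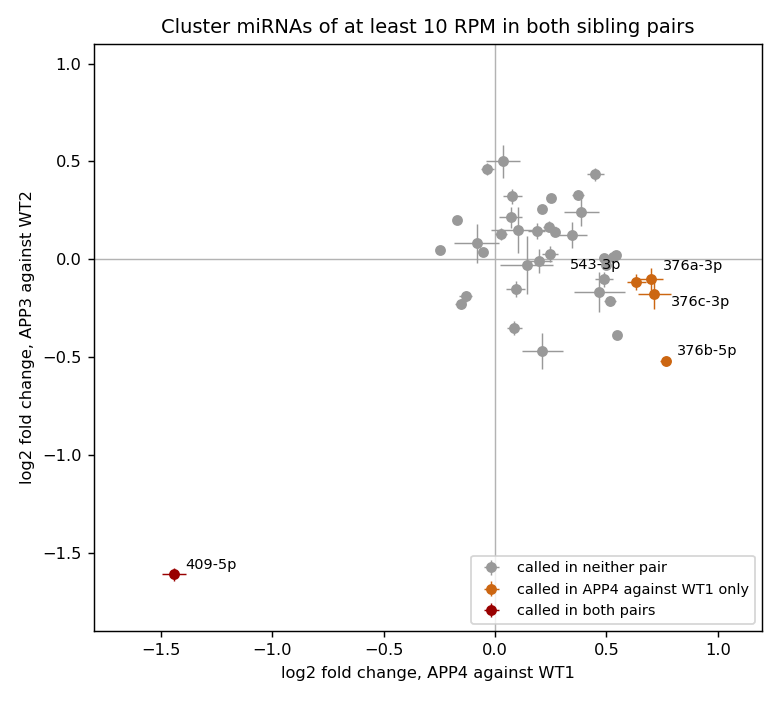
Log2 fold change of the 40 cluster miRNAs of at least 10 RPM in APP4 against WT1 (horizontal axis) and in APP3 against WT2 (vertical axis), with counting SE as bars and colours for the calls. Only miR-409-5p lies far from the rest, at -1.44 and -1.61, and the 4 members called in APP4 against WT1 and not in APP3 against WT2 lie below 0 on the vertical axis.

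The member called in both sibling pairs was miR-409-5p, and it was lower in the AD mouse each time. Over all miRNAs, 1.76% of the 853 tested in both pairs passed the rule in each of them with the same sign. It was at 126.9 RPM in WT1 (3310 reads), 377 RPM in WT2 (8320 reads), 123 RPM in APP3 (2623 reads) and 46.8 RPM in APP4 (891 reads). Both AD mice were below both WT mice, but WT1 and APP3 were close to each other and WT2 stood far above. By Fisher's exact test it fell by 1.44 ± 0.0544 (SE) on the log2 scale in APP4 against WT1, and it fell by 1.61 ± 0.0323 (SE) in APP3 against WT2. With the TMM sizes the values were -1.62 and -1.64 and it was called in both pairs. The same rule called it between mice of one genotype as well, with 1.57 in WT2 against WT1 and -1.40 in APP4 against APP3. The WT mice averaged 252 ± 177 RPM (SD, n = 2) and the AD mice 85.1 ± 54.1 RPM (SD, n = 2).

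The other arm of the hairpin, miR-409-3p, did not follow it. Its level was 884 RPM in WT1, 763 RPM in WT2, 912 RPM in APP3 and 1023 RPM in APP4, with both AD mice above both WT mice. The log2 fold change was 0.21 in APP4 against WT1 and 0.26 in APP3 against WT2, under the 1.5-fold limit in both pairs, and 0.03 and 0.23 with the TMM sizes, with which the genotypes overlapped. In the WT mice, WT2 had more miR-409-5p and less miR-409-3p than WT1. Mir412, Mir369 and Mir410 lie downstream of Mir409 in a stretch of 638 bases that holds all 4 hairpins. Among their leading arms, miR-369-5p differed by 0.54 in APP4 against WT1 and by 0.02 in APP3 against WT2 on the log2 scale, and miR-410-3p by -0.06 and 0.04. Neither was called.

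**Figure D3:**
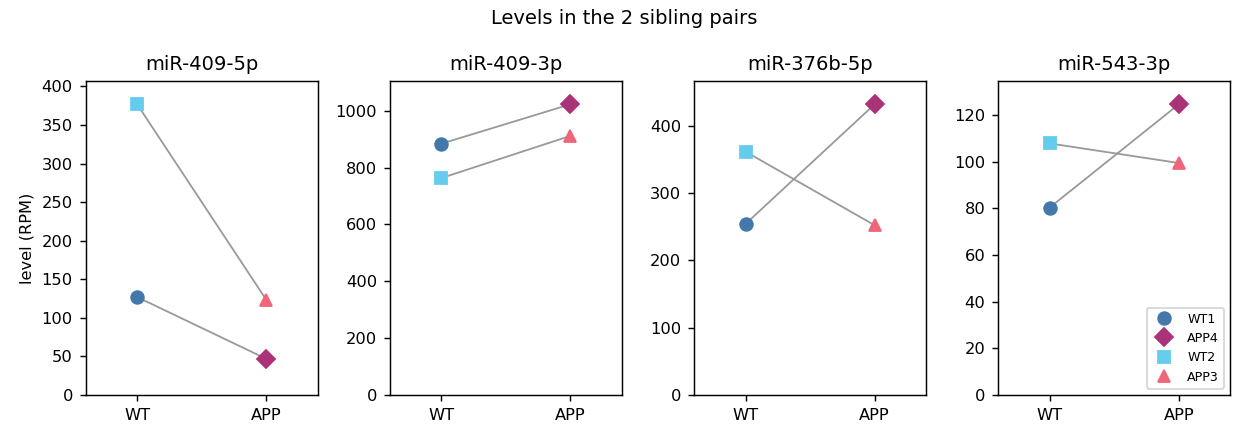
Level (RPM, axes from 0) of miR-409-5p, miR-409-3p, miR-376b-5p and miR-543-3p in each mouse, with a line joining siblings (WT1 with APP4, WT2 with APP3). The lines of miR-409-5p both go down from the WT to the AD mouse, those of miR-409-3p both go up, and those of miR-376b-5p and miR-543-3p cross.

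When the 4 mice were compared by edgeR (quasi-likelihood test), no member passed an adjusted p of 0.05, nor did any of the 623 miRNAs tested (0%). The test covered 63 members. An unadjusted p under 0.05 was found for 3 of them (all miRNAs, 5.78%) and, by DESeq2's Wald test, for 0 of 71 (all miRNAs, 2.97%), with 0 at an adjusted p of 0.05 there too. The 3 were miR-495-5p, miR-409-5p and miR-410-5p. For miR-409-5p the log2 fold change was -1.65 ± 0.593 (SE), with an adjusted p of 0.768 by edgeR. With the sibling pair as a block the change was -1.66 ± 0.202 (SE) and the edgeR adjusted p 0.0166, and it was then the one member among the 2 miRNAs called (0.321% of all). Without WT2 the change of miR-409-5p was -0.70 ± 0.591 (SE), and without APP4 -1.08 ± 0.365 (SE). Without APP3 it was -2.60 ± 0.412 (SE), and without WT1 -2.21 ± 0.521 (SE). Each of these fits leaves 1 mouse in a genotype, so only the change is given.

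The level of miR-495-5p was low, with 0.537 RPM in WT1 (14 reads), 0.589 RPM in WT2 (13 reads), 1.13 RPM in APP3 (24 reads) and 1.52 RPM in APP4 (29 reads). Both AD mice were above both WT mice. The edgeR log2 fold change was 1.09 ± 0.368 (SE), with an unadjusted p of 0.0207 and an adjusted p of 0.768 by edgeR, and the Fisher rule called it in APP4 against WT1 only. The other arm, miR-495-3p, was at 105 RPM in WT1, 123 RPM in WT2, 111 RPM in APP3 and 112 RPM in APP4, and the genotypes overlapped. The third, miR-410-5p, was at 1.65 RPM in WT1 (43 reads), 1.77 RPM in WT2 (39 reads), 1.18 RPM in APP3 (25 reads) and 0.892 RPM in APP4 (17 reads), with an edgeR log2 fold change of -0.84 ± 0.329 (SE) and an adjusted p of 0.768. It was called in neither pair, and with the TMM sizes it was called lower in APP4 against WT1.

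Among the 63 members tested by edgeR, the RPM of the genotypes did not overlap for 18, with the AD mice higher for 14 and lower for 4. Over all 623 miRNAs this held for 36%, with the AD mice higher for 27% and lower for 8.99%. With the TMM sizes the members split into 6 higher and 9 lower, and all miRNAs into 103 higher and 104 lower. Of the 14, miR-495-5p was called in a sibling pair and the other 13 were in neither. Among these, miR-411-3p was at 226 RPM in WT1, 230 RPM in WT2, 289 RPM in APP3 and 293 RPM in APP4. Its log2 fold changes were 0.37 and 0.33 in the sibling pairs, under the 1.5-fold limit in both, and it was among the 6 with the TMM sizes. It comes from the hairpin of the most abundant member, miR-411-5p, for which the genotypes overlapped. The members miR-411-3p and miR-379-3p share the seed and differ at 2 of 22 bases, so whether reads could be split between them is uncertain too.

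Several members rose in APP4 against WT1 without doing so in APP3 against WT2. The 6 arms of the miR-376 hairpins were all higher in APP4 than in WT1, except that miR-376c-5p was slightly lower with the TMM sizes, and 3 of them were called by Fisher's exact test, miR-376b-5p, miR-376c-3p and miR-376a-3p. In APP3 against WT2, 5 of the 6 arms were lower, miR-376a-5p was higher, and none was called. The levels of miR-376b-5p were 254 RPM in WT1, 362 RPM in WT2, 252 RPM in APP3 and 431.997 RPM in APP4. A WT and an AD mouse shared the lowest level, and the other WT mouse came second. It was called between the AD mice too, at 0.78 in APP4 against APP3. Its log2 fold change was 0.77 ± 0.0238 (SE) in APP4 against WT1 and -0.52 ± 0.0255 (SE) in APP3 against WT2, and over the 4 mice the edgeR log2 fold change was 0.01 ± 0.272 (SE) with an adjusted p of 0.9999.

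The 3p arm of the same hairpin, miR-376b-3p, had 676 RPM in WT1, 1048 RPM in WT2, 801 RPM in APP3 and 987 RPM in APP4, with WT2 the highest and WT1 the lowest. Its log2 fold changes were 0.55 in APP4 against WT1 and -0.39 in APP3 against WT2, and it was called between the WT mice, at 0.63 in WT2 against WT1. The level of miR-376c-3p was 25.4 RPM in WT1, 32.4 RPM in WT2, 28.6 RPM in APP3 and 41.7 RPM in APP4. That of miR-376a-3p was 49.2 RPM in WT1, 60.0 RPM in WT2, 55.9 RPM in APP3 and 79.8 RPM in APP4. In both, APP4 was highest and APP3 lay between the WT mice. With the TMM sizes none of the 3 was called, at 0.58 for miR-376b-5p, 0.53 for miR-376c-3p and 0.52 for miR-376a-3p in APP4 against WT1.

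A like pattern was found for miR-543-3p, at 80.3 RPM in WT1, 108 RPM in WT2, 99.4 RPM in APP3 and 125 RPM in APP4. It was called higher in APP4 against WT1, at 0.63 ± 0.0432 (SE) on the log2 scale, and lay at -0.12 ± 0.0431 (SE) in APP3 against WT2. With the TMM sizes it came to 0.45 in APP4 against WT1 and was not called, and its edgeR log2 fold change over the 4 mice was 0.12 ± 0.221 (SE). The other arm, miR-543-5p, was at 12.5 RPM in WT1, 13.3 RPM in WT2, 14.7 RPM in APP3 and 13.4 RPM in APP4, and was called in neither pair.

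The remaining members called in a sibling pair had few reads. The level of miR-1193-5p was 0.307 RPM in WT1, 0.679 RPM in WT2, 0.329 RPM in APP3 and 1.15 RPM in APP4, called higher in APP4 against WT1 and against APP3. In APP3 against WT2, miR-300-5p was called higher, at 2.84 RPM in WT1, 3.22 RPM in WT2, 5.22 RPM in APP3 and 2.89 RPM in APP4, so that 1 library stood above the other 3. It was also called in APP4 against APP3, at -0.85. The level of miR-541-3p was 0.805 RPM in WT1, 1.81 RPM in WT2, 0.799 RPM in APP3 and 0.892 RPM in APP4, and WT2 stood above the rest. It was called lower in APP3 against WT2 and higher in WT2 against WT1.

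**Figure D4:**
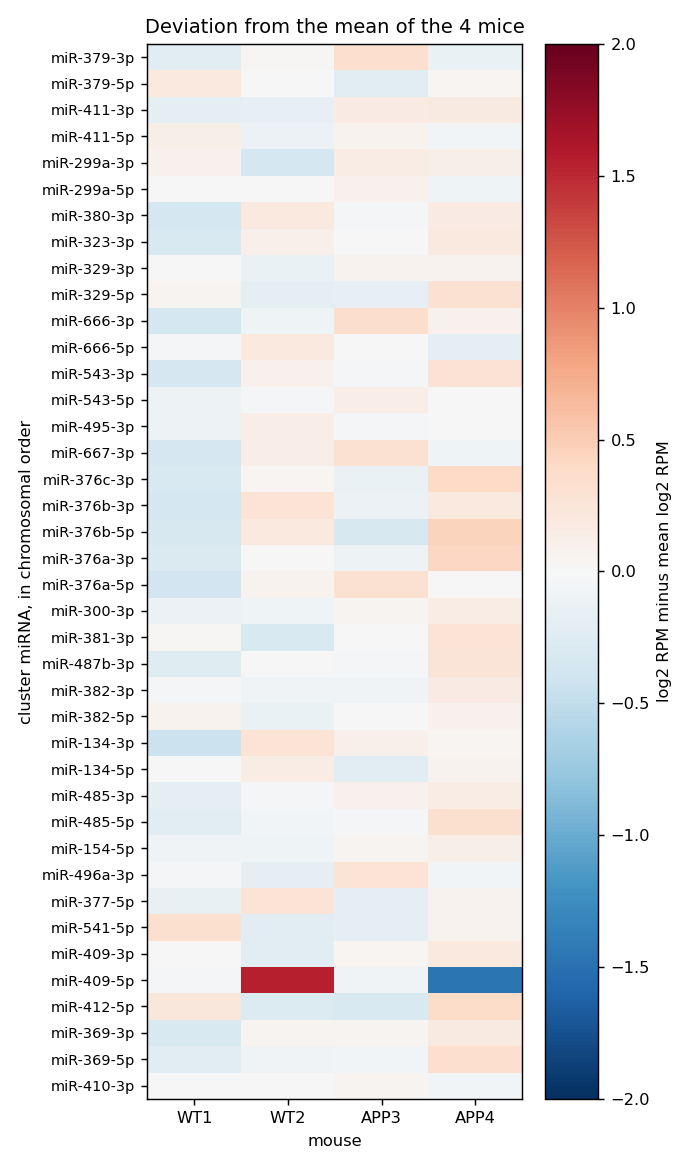
Deviation of log2 RPM from the mean of the 4 mice for the 40 cluster miRNAs of at least 10 RPM, in chromosomal order (rows) and by mouse (columns), red above and blue below the mean. The row of miR-409-5p has the strongest colours, high in WT2 and low in APP4, and the miR-376 rows are mostly blue in WT1 and red in APP4.

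Most members of at least 10 RPM differed little between siblings. The median size of their log2 fold change was 0.25 in APP4 against WT1 and 0.17 in APP3 against WT2, beside 0.27 and 0.21 for all 379 miRNAs at that level. Between mice of one genotype it was 0.24 in WT2 against WT1 and 0.25 in APP4 against APP3, beside 0.25 and 0.22. Of the 40 members, 32 were higher in APP4 than in WT1, as were 268 of the 379 miRNAs, and with the TMM sizes these counts were 24 and 187. In APP3 against WT2, 23 of the 40 were higher, as were 216 of the 379.

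Values are given for 3 members with roles at synapses, chosen after their values were seen. They are miR-134-5p, which represses Limk1 and limits the size of dendritic spines, miR-485-5p, which acts on the synaptic vesicle protein SV2A, and miR-329-3p, which takes part in the outgrowth of dendrites driven by neuronal activity.
miR-134-5p: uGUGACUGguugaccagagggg
miR-329-3p: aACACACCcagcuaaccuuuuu
The level of miR-134-5p was 158 RPM in WT1, 175 RPM in WT2, 137 RPM in APP3 and 167 RPM in APP4, and the genotypes overlapped. Its log2 fold changes were 0.09 in APP4 against WT1 and -0.35 in APP3 against WT2. For miR-485-5p, APP4 stood above the other mice, with 197 RPM in WT1, 221 RPM in WT2, 223 RPM in APP3 and 285 RPM in APP4. Its log2 fold changes were 0.53 and 0.01 in the sibling pairs, the first of them short of the 1.5-fold limit. The levels of miR-329-3p were 69.0 RPM in WT1, 62.7 RPM in WT2, 72.7 RPM in APP3 and 72.4 RPM in APP4, with a narrow gap between the genotypes that was lost with the TMM sizes. None of the 3 was called in a sibling pair.

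The balance of the arms within a hairpin does not depend on the scaling of a library. It was computed as the log2 ratio of 5p to 3p reads for the 179 hairpins with both arms listed and at least 20 reads per library on average in each arm, of which 27 belong to the cluster. The 5p arm led in all 4 mice for 13 cluster hairpins and the 3p arm for 14, and 12 hairpins had 1 arm at least 10 times the other in every mouse. The widest ratios were those of miR-541, with 13.36 and 11.67 in WT1 and WT2 and with 12.87 and 12.95 in APP3 and APP4, and of miR-410, with -12.02 and -11.94 in WT1 and WT2 and with -12.56 and -12.83 in APP3 and APP4. A balanced hairpin was miR-369, with ratios of 0.51 and 0.28 in WT1 and WT2 and of 0.30 and 0.57 in APP3 and APP4. Over the 4 mice the ratio spanned a median of 0.60 in the cluster and 0.69 in all hairpins tested.

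**Figure D5:**
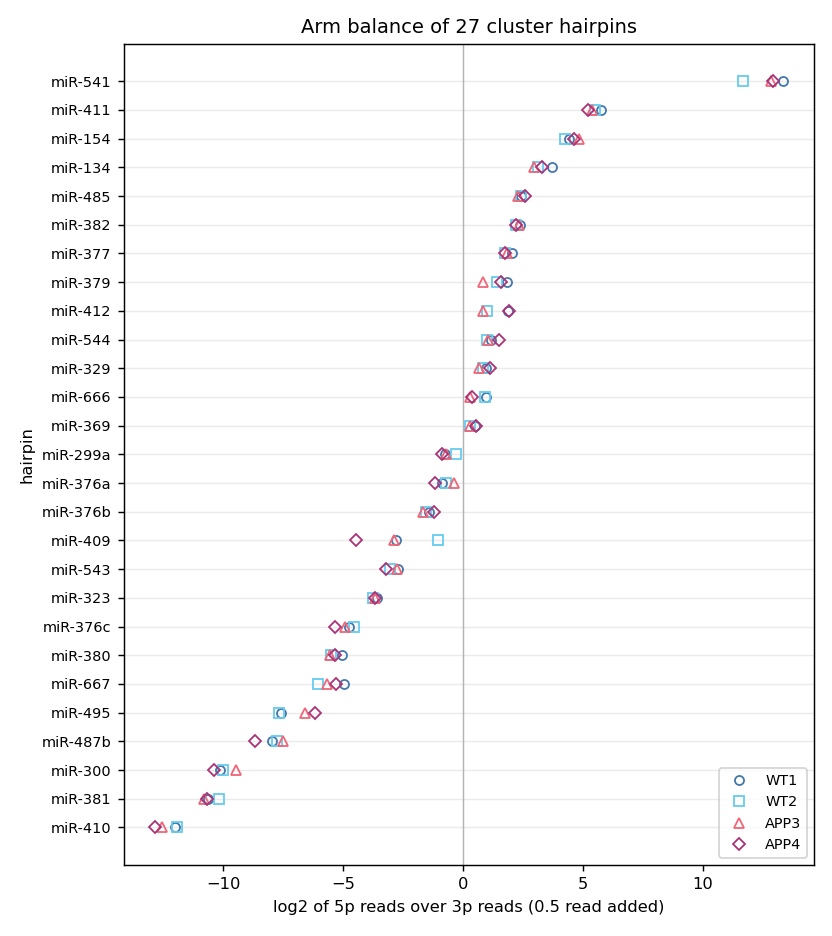
Log2 ratio of 5p to 3p reads (0.5 read added) of the 27 cluster hairpins tested, ordered by their mean ratio, with 1 symbol for each mouse. The symbols of most hairpins fall close together, and those of miR-409 spread furthest, from -4.45 in APP4 to -1.02 in WT2.

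The ratio of miR-409 varied most among all 179 hairpins, with a span of 3.43 over the mice. The 5p arm gave 12.6% of the hairpin's reads in WT1 and 33.1% in WT2, with 95% Wilson intervals of 12.2 to 13.0 and 32.5 to 33.6. In the AD mice it gave 11.9% in APP3 and 4.37% in APP4, with intervals of 11.5 to 12.4 and 4.10 to 4.66. It was lower in both AD mice than in both WT mice, with APP3 just under WT1. By Fisher's exact test the log2 ratio fell by 1.65 ± 0.0562 (SE) in APP4 against WT1, and it fell by 1.87 ± 0.0357 (SE) in APP3 against WT2. It was also called between mice of one genotype, at 1.78 in WT2 against WT1 and -1.56 in APP4 against APP3.

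In APP4 against WT1 the arm balance of 2 of the 27 cluster hairpins was called, miR-409 and miR-495, beside 17.9% of all 179 hairpins. In APP3 against WT2, 3 were called, beside 17.3%. Here miR-409 and miR-666 were lower and miR-541 was higher. For miR-666 the log2 ratio was 0.96 in WT1 and 0.93 in WT2 but 0.31 in APP3 and 0.38 in APP4, so the mice of one genotype were close and the genotypes were apart. How many of the 179 hairpins were apart in this way was not counted, and the arms of miR-666 were taken up after their values were seen. The ratio of miR-666 differed by -0.58 in APP4 against WT1, just short of the 1.5-fold limit, and by -0.62 in APP3 against WT2. Its arms moved in opposite ways, miR-666-5p at 228 RPM in WT1, 270 RPM in WT2, 237 RPM in APP3 and 208 RPM in APP4, and miR-666-3p at 117 RPM, 141 RPM, 191 RPM and 160 RPM in the same order. Between mice of one genotype, 4 cluster hairpins were called in WT2 against WT1, beside 25.7%, and 6 in APP4 against APP3, beside 19.6%. Besides miR-409, miR-412 was called in both, with log2 ratios of 1.89 and 1.03 in WT1 and WT2 and of 0.84 and 1.91 in APP3 and APP4. Each genotype thus held 1 mouse near each of 2 values, and the siblings WT1 and APP4 were close to each other, as were WT2 and APP3. For miR-379 the ratio was 1.83 in WT1 and 1.41 in WT2, and it was 0.85 in APP3 and 1.60 in APP4, called between the AD mice. Its arms were at 360 RPM in WT1, 315 RPM in WT2, 269 RPM in APP3 and 323 RPM in APP4 for miR-379-5p and at 101 RPM, 119 RPM, 149 RPM and 107 RPM for miR-379-3p in the same order, so APP3 had the least 5p and the most 3p. The uncertainty over reads split between miR-379-3p and miR-411-3p applies to this ratio too.

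Over the 4 mice with limma, the arm balance of no cluster hairpin passed an adjusted p of 0.05, nor did that of any of the 179 hairpins (0%). An unadjusted p under 0.05 was found for 3 of the 27, miR-495, miR-409 and miR-410, and for 13 of the 179. The difference of the AD from the WT mice was -1.76 ± 0.609 (SE) for miR-409, with an adjusted p of 0.654 by limma, and 1.23 ± 0.323 (SE) for miR-495, with 0.326. For miR-409 it was -0.87 without WT2, -0.98 without APP4, -2.54 without APP3 and -2.65 without WT1. These fits also leave 1 mouse in a genotype, so only the difference is given. With the sibling pair as a block, miR-409 was called with a limma adjusted p of 3.4e-05 and miR-495 with 0.014, among 4 hairpins in all (2.23%). The block fit gave every cluster hairpin the same SE of 0.333. Its p-values thus rest on a spread pooled over hairpins, and not on that of miR-409 or miR-495 alone. The log2 ratio of miR-495 was -7.56 and -7.66 in WT1 and WT2, against -6.59 and -6.18 in APP3 and APP4, and it rests on 13 to 29 reads of the 5p arm per library. For miR-666 the limma difference was -0.60 ± 0.309 (SE), with an adjusted p of 0.762, and 0.617 with the block.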

How the data were processed

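Small RNA of the cortex of 2 WT and 2 AD mice was sequenced on an Illumina HiSeq. Per the methods, the authors trimmed and filtered the reads, kept those of 18 to 35 nt, matched them to miRBase and other RNA databases with Bowtie and CLC Genomics Workbench, and mapped them to GRCm38. The methods give up to 2 mismatches for the matching and also none for miRBase, and which holds for these counts was not settled. The submitters' processing notes name CASAVA 1.8 and mm9. The labels give Trizol for the RNA, the methods a miRNeasy kit. The authors deposited raw read counts of 942 miRNAs and, under the name TPM, the same values as RPM of clean reads. The deposited RPM served only to recover the clean reads (22851004 to 31265701 per library). No column was left out, and 4 libraries gave 19048747 to 26085776 miRNA reads.

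Counts were scaled to the miRNA reads of each library. Intervals and floors (3 reads) cover counting error only, since PCR copies are not independent. Nothing states that RNA was extracted more than once per mouse. The p-values of edgeR, DESeq2 and limma measure the spread between these mice, and those of Fisher's exact test cover counting error only. In the limma fit with the sibling block, this spread was pooled over hairpins, with the same SE for every cluster hairpin. Fisher's exact tests (scipy 1.17.1) compared pairs of libraries, with 0.5 read added for log2 fold changes. edgeR 4.0.16 (filterByExpr, TMM, quasi-likelihood), DESeq2 1.42.0 and limma 3.58.1 (arm ratios) ran in R 4.3.3 over all miRNAs or hairpins of the table. Alternatives were TMM sizes, a minimum of 10 RPM, a 2-fold limit, no TMM, no filter, at least 100 reads per arm, 5 reads added, the sibling block and each mouse left out. TMM sizes for the overlap of genotypes and for the mean summed level were added after seeing the data. The pairing comes from the study's methods. Over the 252 miRNAs of at least 50 RPM, the deviations of WT1 and APP4 from their genotype means correlated with r = 0.235, and over the 31 members among them with r = 0.441. Every 2 libraries differed by more than sampling noise (chi-square over its degrees of freedom, 574 or higher).

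On simulated counts, the Fisher rule recovered 138 of 193 changed miRNAs of 896 in APP4 against WT1, with 2 false calls, and edgeR 123 of 146 of 633, with 5. The counts for the Fisher rule were drawn with almost no spread between mice and with changes of 2-fold or more. Its 2 false calls therefore leave out differences between mice of one genotype. On the real counts the same rule called 10.1% of all miRNAs in WT2 against WT1. For arm ratios, Fisher's test recovered 37 of 40 of 179 hairpins with 0 false calls, and limma 29 of 30 with 0. The counts for edgeR had changes of 2-fold or more and the same spread between mice for every miRNA. The ratios for limma had changes of 2 on the log2 scale, up or down, and the same spread for every hairpin. Recovery of smaller changes, or where the spread is unequal, was not measured.

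The members and lists were chosen with earlier results of these data known. Named with their values were the 10 members of highest mean level, members called in both sibling pairs, the 5 called members of at least 10 RPM with the largest change in each pair, the members the study names (miR-409-5p, miR-376b-5p and miR-543-3p), the 3 of lowest edgeR p, their other arms, and the hairpins with the largest or a called change of arm balance. The miR-666 and miR-379 arms, miR-1193-5p, the 3 members named for roles at synapses and the other members named only for their sequence or for having no reads were chosen after their values were seen.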

Additional observations from a re-analysis of the deposited data

Results flagged for a closer look

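In 2 members the siblings moved in opposite directions, each with an FDR under 0.05 by Fisher's exact test in both pairs and at least a 1.5-fold change in one. For miR-376b-5p the log2 fold change was 0.77 in APP4 against WT1 and -0.52 in APP3 against WT2. For miR-543-3p it was 0.63 in APP4 against WT1 and -0.12 in APP3 against WT2. No test was run on this contrast between sibling pairs, as a pair is 1 WT and 1 AD mouse. Of the 22 members with an FDR under 0.05 in both pairs, 11 had opposite signs, as did 107 of the 240 miRNAs of the whole table.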

How the results depend on the processing

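With TMM library sizes, 4 members in place of 7 were called in APP4 against WT1, beside 82 of all 899 miRNAs. With the 2-fold limit, 3 were called in APP4 against WT1 (all miRNAs, 50 of 899), 2 in WT2 against WT1 (38 of 879) and 2 in APP4 against APP3 (38 of 907). With a minimum of 10 RPM, 1 was called in APP3 against WT2 (30 of 373), 3 in WT2 against WT1 (36 of 369) and 3 in APP4 against APP3 (39 of 382), where fewer miRNAs were tested. The call of miR-409-5p was made under all of these settings in both sibling pairs. Over the 4 mice by edgeR, 1 member was called with the sibling block (all miRNAs, 2 of 623). The changes of miR-409-5p and of the arm balance of miR-409 with each mouse left out are given above, without calls. With no TMM, with no filter and by DESeq2, 0 members were called. By limma, the arm balance of 2 hairpins was called with the block, where the p-values rest on a pooled spread. In the fits with a mouse left out, the mouse left alone in its genotype was assumed to vary like the others. With at least 100 reads per arm, 1 hairpin was called in APP4 against WT1 (all hairpins, 17 of 118) and 2 in APP3 against WT2 (19 of 118). Here miR-495 and miR-541 were no longer tested. The block changed no other call of a member. The summed level as a share of clean reads was 3.399% and 3.27% in WT1 and WT2, and 3.45% and 3.38% in APP3 and APP4. Without miR-411-5p it was 2.84%, 2.63%, 2.73% and 2.96% of the miRNA reads in the same order. With TMM sizes it was 4.29% and 3.77% in WT1 and WT2, and 3.94% and 3.76% in APP3 and APP4, so that the WT mean came above the AD mean. Changes of sign with TMM sizes were sought among the members named by the rules above, without those chosen after their values were seen. They were found for 7 differences that were small and called in neither case. In APP4 against WT1 they came to -0.026 for miR-541-3p, -0.15 for miR-300-5p, -0.058 for miR-376c-5p, -0.078 for miR-543-5p and -0.091 for miR-495-3p, and in APP3 against WT2 to -0.0089 for miR-369-5p and -0.025 for miR-369-3p. Other members changed sign too. Of the 40 members of at least 10 RPM, those higher fell from 32 to 24 in APP4 against WT1. In APP3 against WT2 they fell from 23 to 19. The cause of these shifts beyond the scaling was not tested. With 2 mice per genotype, the spread between mice and not the depth limits the members of many reads, and depth limits those under 1 RPM.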
